A study of Sus scrofa with 48 samples.

Results

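The genes described here carry glucose into the muscle fibre and break it down to lactate, together with the enzyme that buffers muscle ATP. They were chosen by name: SLC2A4, HK2, PFKM, GPI, LDHA, LDHB and CKM, through every array probe whose pig RefSeq accession belongs to 1 of the 7. The array held 7 such probes among 43603 different probes, and they covered 5 of the 7 genes. HK2 (NM_001122987), PFKM (NM_001044550), GPI (NM_214330) and CKM (NM_001129949) had 1 probe each, and LDHB (NM_001113287) had 3 probes. No probe could be tied to SLC2A4 or LDHA, which were not analysed here. Probes listed under Ensembl transcript accessions could not be tied to genes with the tables used here, and probes of SLC2A4 and LDHA may be among them. RefSeq lists 2 pig genes under the symbol LDHB, so signal of near-identical copies cannot be told apart.

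Glucose enters a muscle fibre mainly through the insulin-regulated transporter encoded by SLC2A4. Hexokinase 2 (HK2) then traps it as glucose 6-phosphate, glucose phosphate isomerase (GPI) turns that into fructose 6-phosphate, and the muscle form of phosphofructokinase (PFKM) commits it to glycolysis. Lactate dehydrogenase is a tetramer of A subunits (LDHA), which prevail in fast glycolytic muscle, and B subunits (LDHB), which prevail in the heart and in slow oxidative fibres. The muscle creatine kinase CKM regenerates ATP from phosphocreatine at the start of a contraction.

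RNA of gluteus medius muscle (GM), liver and kidney was measured in 16 Swiss Large White F2 pigs on 48 Agilent arrays with 1 colour, 1 array for each pig and tissue. The 8 F2 E pigs descended, through F1 boars, from F0 boars whose standard feed had been supplemented with methylating micronutrients, and the 8 F2 C pigs from F0 boars on the standard feed alone. The F1 boars and all F2 pigs of both lines were themselves given standard feed, and each line held 4 barrows and 4 females. The tissues were collected at the abattoir shortly after exsanguination. The ancestral diet is the only named difference, but the lines also descend from different boars, and diet and descent cannot be told apart. By the paper's account, each line had fewer F1 fathers and fewer mothers than the 8 pigs measured, so some pigs within a line shared parents. Which of the pigs share a father is not given in the sources used here, and p-values treat every pig as independent all the same.

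Signals were quantile-normalized and are given on the log2 scale, where a difference of 1 is a change by a factor of 2. Levels between tissues come from all 48 arrays normalized together, and levels between lines from the 16 arrays of a tissue. Levels of different probes are not comparable. The spots well above background numbered 18948 to 28754 per GM array, 24128 to 30814 per liver array and 25071 to 36804 per kidney array. Each slide held 4 arrays of 1 tissue. In GM and kidney each slide held 1 line, so slide and line cannot be told apart there, and tissue and slide cannot be told apart anywhere. The tissue labels matched their markers: all 8 probes of general muscle fibre genes separated GM from the other tissues, as did 10 of 10 liver probes for liver and 4 of 4 kidney probes for kidney. Kidney F2 E arrays 5 and 7 stood apart with a median spot signal of 48 each. The GM F2 E array 2 had the lowest median signal of its tissue, also 48, with the next at 50.5. Pigs are cited by the number of their array within a tissue and line. F2 E numbers 4 to 8 stand for different pigs in different tissues.

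The muscle enzymes HK2, GPI, PFKM and CKM were higher in GM than in liver and kidney, while LDHB ran the other way. GM exceeded liver by 8.56 in PFKM and 3.90 in GPI on the log2 scale, and it exceeded kidney by 6.69 in PFKM, 5.38 in GPI and 10.17 in CKM. All 3 LDHB probes were lower in GM than in either other tissue. Each of the 7 probes passed limma's test at an adjusted p of 0.05 in both comparisons, 4 as higher and 3 as lower in GM. Such calls were common on this array: 35% of 34501 probes were called higher and 35.6% lower in GM against liver, and 35.2% higher and 39.9% lower in GM against kidney. A call by itself therefore says little about these genes, and their order across tissues and the size of the differences are what follows. In whole tissue, fewer cells of a type and less RNA per cell cannot be told apart.

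**Figure D1:**
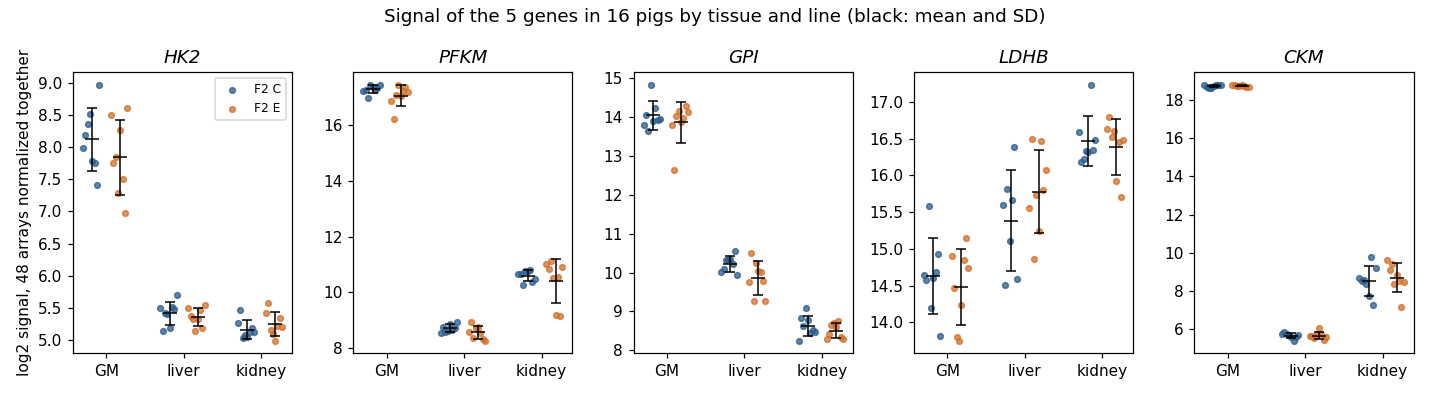
Log2 signal (48 arrays normalized together) of HK2, PFKM, GPI, LDHB (probe A_72_P007566) and CKM in GM, liver and kidney, 1 point per pig, F2 C in blue and F2 E in orange, with mean and SD in black. HK2, PFKM, GPI and CKM were highest in GM, and LDHB was lowest in GM, while its order between liver and kidney depended on probe and scaling.

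HK2, which starts glycolysis in muscle and fat, gave a log2 signal in GM of 7.42 to 8.97 in the F2 C pigs (median 8.09) and of 6.98 to 8.61 in the F2 E pigs (median 7.80). In liver its 16 values ran from 5.13 to 5.69, and in kidney from 4.99 to 5.57. GM lay above both without overlap, and HK2 was well above background on 15 of 16 GM arrays but on none of the liver or kidney arrays. The signal in GM was at least 4.82-fold that in liver and at least 5.54-fold that in kidney, each bound being the GM mean against the lowest signal measurable in the other tissue. The adjusted p-values were 1.96e-25 and 1.28e-26 (limma). Between liver and kidney neither side was measurable.

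GPI catalyses a reversible step used by both glycolysis and gluconeogenesis. Its log2 signal in GM ran from 12.63 to 14.83 (median 13.96), in liver from 9.28 to 10.55 (median 10.07) and in kidney from 8.25 to 9.10 (median 8.56). The 3 tissues did not overlap, and the order GM, liver, kidney was the same in each of the 16 pigs. Liver exceeded kidney by 1.48 ± 0.12 (SE) on the log2 scale, with an adjusted p of 2.63e-15 (limma).

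PFKM encodes the phosphofructokinase of skeletal muscle. Its log2 signal in GM ran from 16.24 to 17.47 (median 17.26), in kidney from 9.15 to 11.12 (median 10.65) and in liver from 8.26 to 8.94 (median 8.62). The tissues again did not overlap, but here kidney stood above liver in all 16 pigs, the reverse of GPI. The difference of liver from kidney was -1.87 ± 0.13 (SE), with an adjusted p of 1.70e-17 (limma). The lowest kidney values, 9.15 and 9.19, belonged to F2 E arrays 7 and 5, those with a median spot signal of 48.

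CKM had the widest differences of the 5 between GM and the other tissues. Its log2 signal in GM ran only from 18.65 to 18.82, in kidney from 7.17 to 9.76 (median 8.53) and in liver from 5.38 to 6.03 (median 5.64). The kidney values lay above all liver values, and CKM was well above background on all 16 kidney arrays but on 2 of 16 liver arrays. The log2 difference of GM from liver, 13.11, was therefore taken against signal near background, and it ran from 13.04 to 16.3 over the other settings. The narrow range in GM needs care: CKM held ranks 10 to 19 of all probes on the GM arrays, where quantile normalization gives each rank 1 value on every array, and its signals before normalization ran from 343843 to 535058. The summed signal of 8 general muscle fibre probes ran from 18267 to 60080 in kidney and from 11345 to 21525 in liver, and these ranges overlapped. In GM the sum was 2444890 to 2806800. The general list held DES, MYOT and 4 genes that the fast fibre list also held (MYLPF, TNNT3, TNNI2 and TNNC2). Fast fibre markers gave a sum over 13 probes of 621 to 984 in kidney and 661 to 1006 in liver, near background. Of these probes, 4 in F2 C and 9 in F2 E were well above background on no liver array, against 0 and 1 in kidney. Sums so close to background cannot show an order of liver and kidney. The part of muscle RNA in the kidney signal of CKM was not tested.

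LDHB encodes the H subunit of lactate dehydrogenase, the form of heart, kidney cortex and oxidative fibres. With probe A_72_P007566, the brightest of the 3, the log2 signal in kidney ran from 15.70 to 17.23 (median 16.46), in liver from 14.50 to 16.49 (median 15.67, 15 arrays, the spot of 1 F2 C array being marked as an outlier) and in GM from 13.75 to 15.59 (median 14.62). GM and kidney did not overlap, while liver overlapped both. The difference of GM from kidney was -1.87 ± 0.17 (SE, adjusted p = 7.18e-14, limma), lower in GM in 16 of 16 pigs, and that of GM from liver was -1.03 ± 0.17 (adjusted p = 8.66e-07), with GM higher in 1 of 15 pigs. Probes A_72_P321168 and A_72_P095666 gave -1.91 and -1.29 against kidney, and -1.26 and -1.33 against liver. With both of these probes GM overlapped kidney and liver, and with A_72_P095666 GM was above kidney in 3 of 16 pigs.

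Between liver and kidney the 3 LDHB probes disagreed. Liver was lower by 0.84 ± 0.17 (SE) with A_72_P007566 and by 0.65 ± 0.21 with A_72_P321168, at adjusted p-values of 2.98e-05 and 0.00498 (limma). A_72_P095666 gave 0.04 ± 0.22, at an adjusted p of 0.897. With the arrays scaled to the 75th percentile of the median signal instead, the first and second differences became -0.20 and -0.11 and neither passed, at adjusted p-values of 0.311 and 0.633. The scaling itself moved the median of all probes by 0.40 between liver and kidney, and by 0.26 and 0.65 in GM against liver and kidney. An order of liver and kidney in LDHB was therefore not settled by these arrays, whereas the lower signal in GM was called with all 3 probes under each of the scalings tried. Of the 7 probes, 5 were called between liver and kidney, against 33.5% of all probes called higher and 36.6% lower in liver.

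**Figure D2:**
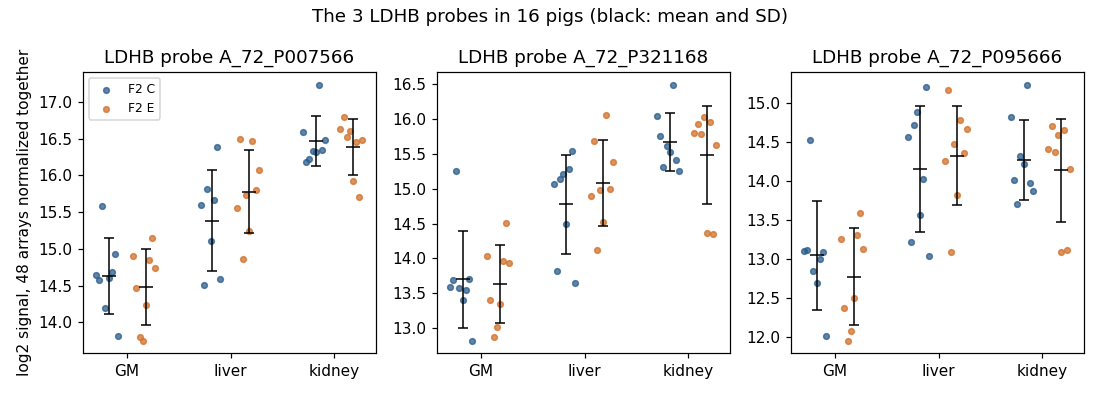
Log2 signal (48 arrays normalized together) of the 3 LDHB probes in GM, liver and kidney, 1 point per pig, F2 C in blue and F2 E in orange, with mean and SD in black. GM was lowest with each probe, while kidney stood above liver with A_72_P007566 and A_72_P321168 but level with it with A_72_P095666.

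The wider pathway showed where these 5 genes sit. The lists of glycolysis, glycogen, transport, creatine, regulator and gluconeogenesis genes named 94 genes, of which 21 had a probe, 32 probes in all. Against kidney, 25 of the 32 were called higher and 5 lower in GM, with a median log2 difference of 2.48, and against liver 21 were higher and 8 lower, with a median of 1.81. All 4 glycolysis probes (ENO3, PGK1 and 2 of TPI1) were higher in GM in both comparisons. ENO3, the muscle enolase, differed by 11.35 ± 0.11 (SE) from liver and 11.62 ± 0.11 from kidney. CKMT2, the creatine kinase of muscle mitochondria, differed by 8.71 and 7.07 with its higher probe. MEF2C, a transcription factor of muscle genes, exceeded liver by 5.54.

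The glucose-producing side ran the other way. FBP1, the fructose bisphosphatase of gluconeogenesis, gave a log2 difference of -7.57 ± 0.12 (SE) for GM against liver and of -7.77 ± 0.12 against kidney. PC, pyruvate carboxylase, differed by -2.60 and -2.19. SLC2A2, the glucose transporter of liver and renal tubule, was not well above background on any GM array and was at least 65.9-fold higher in liver and at least 6.90-fold higher in kidney than in GM. PFKFB1, which sets the level of a phosphofructokinase activator, was in turn not well above background on any kidney array, and its signal in GM was at least 260-fold higher. All these differences had adjusted p-values under the threshold (limma, 34501 probes).

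Between F2 E and F2 C, no probe of the 5 genes passed the test in any tissue. In GM 197 of 25625 probes were called between the lines (0.769%), in liver 27 of 28823 (0.0937%) and in kidney 4 of 33664 (0.0119%), and with slide as a random block the calls in GM numbered 5. Of the members present, GM had 0 of 7 called, liver 0 of 5 and kidney 0 of 6. Below an unadjusted p of 0.05 there was 1, GPI in liver, while the share of all probes below it was 16.1% in GM, 8.29% for liver and 3.89% for kidney. With so few calls on the whole array, the absence of calls among a handful of probes carries little, and the intervals of the differences are given instead.

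**Figure D3:**
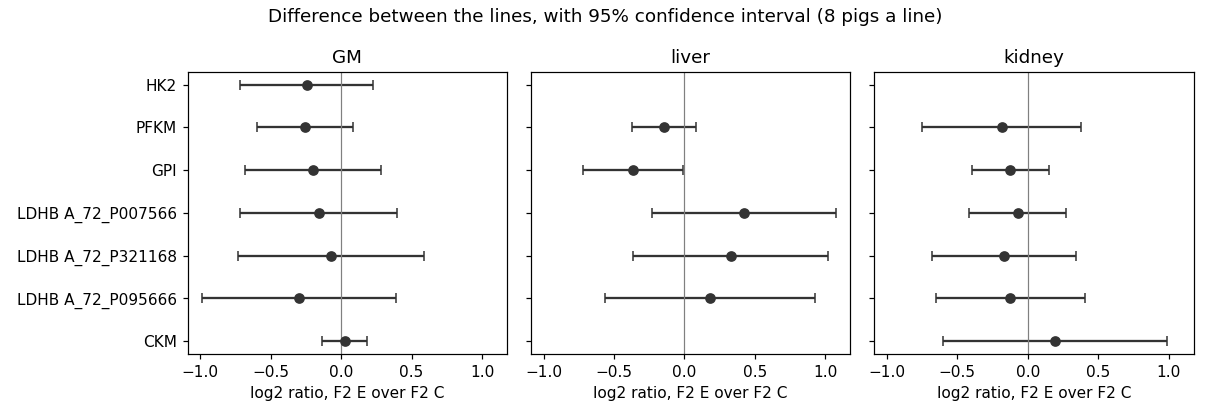
Log2 ratio between F2 E and F2 C (positive where F2 E was higher) for each probe present in GM, liver and kidney, as the limma estimate with its 95% confidence interval from 8 pigs a line. Every interval included 0 except that of GPI in liver, from -0.72 to -0.01.

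In GM, 6 of the 7 log2 ratios between F2 E and F2 C were below 0, with a median of -0.20, that of GPI, against -0.02 over all probes. All LDHB ratios were among the 6, and the LDHB probes followed each other across pigs, so this is not a count of genes. Several of the 7 ratios rested on 1 pig: without F2 E pig 2 that of GPI was -0.0093 and that of PFKM -0.12, and without F2 C pig 3 that of LDHB was -0.0063 with A_72_P007566, -0.068 with A_72_P095666 and 0.17 with A_72_P321168. PFKM spanned 16.67 to 17.22 in the F2 C pigs (median 17.02) and 15.83 to 17.23 in the F2 E pigs (median 16.85), and the lines overlapped. Its log2 ratio was -0.26 ± 0.16 (SE), with an adjusted p of 0.438 (limma). HK2 spanned 6.62 to 8.03 in the F2 C pigs (median 7.20) and 6.28 to 7.68 in the F2 E pigs (median 6.94), a log2 ratio of -0.24 with an interval from -0.71 to 0.23. HK2 lay near the background, and the median local background of the arrays also differed, from 14 to 24 in F2 C and from 26 to 28 in F2 E. The HK2 ratio was -0.14 after normexp correction for that background and -0.35 with the processed signal scaled to the 75th percentile, neither past the test.

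GPI in GM spanned 12.96 to 14.28 in the F2 C pigs (median 13.30) and 11.87 to 13.67 in the F2 E pigs (median 13.37), so the F2 E median was the higher one although the log2 ratio was -0.20, with an interval from -0.68 to 0.28. CKM gave 0.02 with an interval from -0.13 to 0.18, within the compression described above. With the arrays scaled to the 75th percentile instead of quantile-normalized, the CKM ratio was 0.18 with the median signal and 0.26 with the processed signal, neither past the test.

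LDHB spread widely in both lines in GM. With A_72_P007566 it spanned 13.16 to 15.13 in the F2 C pigs (median 14.05) and 13.09 to 14.64 in the F2 E pigs (median 14.02). The log2 ratio was -0.16 with an interval from -0.72 to 0.39. The ratios of A_72_P095666 and A_72_P321168 were -0.30 and -0.07.

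In liver, GPI spanned 9.91 to 10.54 in the F2 C pigs (median 10.25) and 9.24 to 10.51 in the F2 E pigs (median 9.88). The lines overlapped, and the F2 E pigs spread more, with an SD of 0.44 against 0.21. The log2 ratio was -0.37 ± 0.17 (SE), with an adjusted p of 0.562 (limma), and permuting the 16 pigs over all 6435 half-splits gave an exact unadjusted p = 0.0517 (two-sided). On each of the 2 liver slides that held both lines, with 2 pigs a line, the ratio was -0.26 and -0.72. LDHB went the other way in liver, with ratios of 0.42, 0.33 and 0.18 for its 3 probes, none past the test at adjusted p-values of 0.766 to 0.924. PFKM gave -0.15 with an interval from -0.37 to 0.08.

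In kidney, 5 of 6 ratios were below 0, 3 of them those of LDHB, and all adjusted p-values were 1.00 (limma). PFKM spanned 10.82 to 11.35 in the F2 C pigs (median 11.22) and 9.74 to 11.66 in the F2 E pigs (median 11.25), a log2 ratio of -0.19. Without F2 E arrays 5 and 7 it was 0.22 and the 3 LDHB ratios, otherwise -0.07 to -0.17, also turned positive, to 0.11, 0.15 and 0.19. None of these passed the test either way. GPI gave -0.12 and CKM 0.19, with intervals from -0.40 to 0.15 and from -0.60 to 0.99. The CKM ratio was 0.44 without F2 E arrays 5 and 7. Leaving out 1 pig moved it between 5.6e-05 (without the pig of kidney F2 C array 7) and 0.43 (without that of kidney F2 E array 7).

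The difference between the lines did not depend detectably on tissue or sex for these genes. Among all 34501 probes, 0.122% were called for a line difference that differed between GM and liver, 0.0464% between GM and kidney and 0.0203% between liver and kidney, and none of the 7 was among them, the smallest adjusted p being 0.801. For line and sex, 0% of the probes were called in each tissue (limma, with 889, 506 and 884 at an unadjusted p under 0.05 in GM, liver and kidney). The largest such term among the 7 was 1.03 ± 0.59 (SE) for A_72_P321168 in GM.

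The pathway lists gave a like picture between the lines, with no calls among 31 probes of GM, 29 of liver and 30 of kidney (unadjusted p under 0.05 for 5, 2 and 0, to be read against the shares of all probes given above). In GM the widest ratio was that of SLC16A1, a monocarboxylate transporter that carries lactate across the membrane, at -0.62 ± 0.21 (SE, adjusted p = 0.164, limma) with probe A_72_P294944. The other SLC16A1 probe, A_72_P280129, gave -0.21. UGP2, which makes the sugar donor of glycogen, gave -0.50 in GM, -0.47 in liver and -0.47 in kidney with probe A_72_P121001, none past the test, and MEF2C gave 0.49 with A_72_P024306 and -0.26 with A_72_P302709 in GM. The other 3 UGP2 probes gave ratios between -0.19 and 0.12 in GM, while liver gave -0.23 to -0.09 and kidney -0.08 to -0.03. In liver the 2 TPI1 probes gave -0.43 and -0.33. In kidney CKMT2 gave -0.30 with A_72_P224432 and -0.15 with A_72_P294310. PDK4, a kinase that switches off pyruvate dehydrogenase, gave -0.29 with A_72_P293579 there, while its other probes gave 0.04 and -0.06. Without kidney F2 E arrays 5 and 7 the kidney ratios of UGP2 and PDK4 with these probes were 0.21 and 0.091, and that of CKMT2 A_72_P224432 was -0.14.

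Between pigs, LDHB was among the more variable transcripts in GM and liver. Its SD within a line was 0.57 in GM with A_72_P007566, above that of 93.4% of the 25625 probes, whose median was 0.29. In liver it was 0.66, above 95.8% of probes, and in kidney 0.32, above 45.5%. The other LDHB probes spread more in kidney, at 0.51 (A_72_P321168) and 0.53 (A_72_P095666), above 77.2% and 79.7% of probes. The 3 probes followed each other across pigs, with Pearson's r from 0.90 to 0.98 in the 3 tissues, so the spread was not that of 1 probe. CKM in kidney was another variable case, with an SD of 0.81, above 95.3% of probes. GPI and HK2 in GM lay above 88.8% and 87.9% of probes, and PFKM in kidney above 83.2%. The remaining values of PFKM, GPI and CKM were lower, from 0.0468% (CKM in GM, compressed) to 65.8% (GPI in liver). Both kidney values of CKM and PFKM include the low-signal F2 E arrays 5 and 7.

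The genes whose signal ran most like that of LDHB across the 16 GM arrays, among 2014 named probes of other genes, were MYOZ2 (r = 0.93), MYL2 (r = 0.91) and SLC16A1 (probe A_72_P280129, r = 0.90). MYOZ2 encodes a Z-disc protein and MYL2 a myosin light chain, both typical of slow fibres. Across the list of slow fibre markers, all 7 probes correlated positively with LDHB, with r from 0.54 (ATP2A2) to 0.93. Of the 13 fast fibre probes 9 correlated negatively, and the highest r among the other 4 was 0.74, that of MYH2, the myosin of fast oxidative fibres. None of the other 4 genes followed the slow list in this way. The median r over its 7 probes was -0.48 for HK2, -0.27 for PFKM, -0.24 for GPI and -0.14 for CKM, whose GM values were compressed as described above.

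The slow fibre signal itself varied among pigs of the same line. Its log2 sum over 7 probes spanned 16.80 to 20.88 in the F2 C pigs (median 19.63) and 17.86 to 20.59 in the F2 E pigs (median 19.07). Against this sum LDHB gave r = 0.86 (permutation p = 2.0e-05, 100000 resamples, adjusted 0.00044 over 22 relations) and Spearman's rho = 0.83 (permutation p = 0.00015, adjusted 0.0033). It was 0.93 within F2 C, 0.82 within F2 E and 0.87 within slides, and 0.81 without the 2 pigs farthest from the median. Against the summed fast fibre signal r was -0.64 (permutation p = 0.0056, adjusted 0.041) and rho -0.55 (permutation p = 0.031, adjusted 0.17), and r was -0.49 without the 2 farthest pigs. That log2 sum spanned only 22.18 to 22.38 in the F2 C pigs and 22.32 to 22.38 in the F2 E pigs. F2 C pig 3 had both the lowest fast sum and the highest LDHB signal. With the arrays scaled to the 75th percentile of the median signal, r was 0.81 for the slow sum and -0.39 for the fast sum. Both relations were picked after the values had been seen. None of the 7 slow or 13 fast fibre probes was called between the lines.

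**Figure D4:**
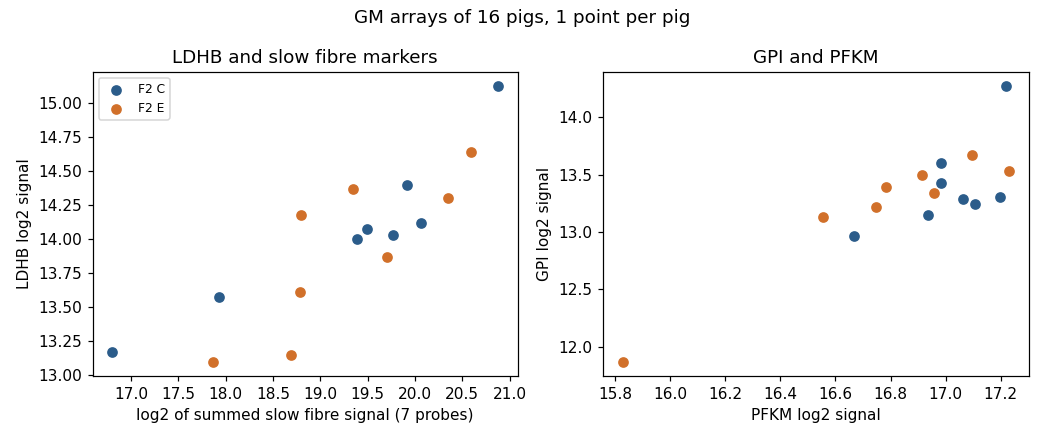
Left, log2 signal of LDHB (A_72_P007566) against the log2 of the summed signal of 7 slow fibre probes, and right, log2 signal of GPI against that of PFKM, each for the 16 GM arrays normalized within the tissue, 1 point per pig, F2 C in blue and F2 E in orange. LDHB rose with the slow fibre sum in both lines (r = 0.86), and 1 F2 E pig lay low in both PFKM and GPI.

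Across the GM arrays the genes nearest to GPI were ENO3 (r = 0.96), TPI1 (r = 0.91), the triosephosphate isomerase, and UBE2D3 (r = 0.91), a ubiquitin-conjugating enzyme. HK2, the enzyme one step before it, gave r = 0.05 and rho = -0.19 with GPI (permutation p = 0.87 and 0.48, adjusted 0.91 and 0.71). Of the pairs of the 5 genes in GM, PFKM and GPI alone passed the adjustment over 22 relations, with r = 0.86 (permutation p = 0.00019, adjusted 0.0021) and rho = 0.68 (permutation p = 0.0046, adjusted 0.051). Part of this rested on F2 E pig 2, at 15.83 in PFKM and 11.87 in GPI. Its array had the lowest median signal in GM, 48 against 50.5 for the next. Without the 2 pigs farthest in PFKM r was 0.58, and it was 0.63 within F2 C, 0.96 within F2 E and 0.87 within slides. The nearest genes to PFKM were SMAD4, UBE2D3 and POPDC3 (r from 0.90 to 0.91), and to HK2 SRSF2, ITIH4 and HSPA13 (r from 0.83 to 0.87). Those nearest to CKM were RPL36AL, RPS21 and CAST (r from 0.82 to 0.86). The CKM values in GM were compressed by the normalization, as described above, so every correlation of CKM there rests on small steps of rank.

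Over all 48 arrays likeness mainly followed tissue. The nearest genes were TPM1, SLN and ADSSL1 for CKM and POPDC3, SLN and CKMT2 for PFKM, all with r of 0.99, TPI1, VDAC1 and LRRC2 for GPI (r from 0.98 to 0.99), and ITGB1BP2, DES and UNC45B for HK2 (r of 0.97). LDHB stood apart, with DEFB1 (r = 0.87), EPCAM (r = 0.85) and CYB5B (r = 0.85) over 47 arrays. EPCAM and DEFB1 are genes of epithelia. These values describe likeness and carry no test. Across tissues of the same pig, no gene passed the adjustment: the highest was GPI in GM and kidney, with r = 0.54 (permutation p = 0.034, adjusted 0.18) and rho = 0.58 (permutation p = 0.019, adjusted 0.14).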

How the data were processed

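The authors extracted the scanner images with Agilent's Feature Extraction software (version 10.5.1.1 per the file headers) and deposited, per array and spot, the intensity as median pixel, local background and processed signal, none normalized between arrays. Their tables of log2 values, ratios and p-values were not used here. The median intensity was quantile-normalized (within a tissue for lines, over 48 arrays for tissues) and converted to log2. Control spots were left out, spots marked as outliers were set to missing afterwards, and the spots of a probe were averaged. Presence required a linear signal over 25 and the flag for well above background on 50% or more of a group's arrays. Lines and tissues were compared with limma 3.58.1 in R 4.3.3 (pig as a random block between tissues, consensus correlation 0.03), with Benjamini-Hochberg adjustment over all present probes and calls at 0.05. Permutation tests were two-sided and exact for lines, and used 100000 resamples for correlations. Code was tested on simulated data. Sums over marker lists included marked spots.

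The number of arrays limits the precision. Probes were named through RefSeq accessions (2628 of 43603 probes, 1862 genes). Named were all member probes, the 3 pathway probes with the widest line ratio in each tissue, the 3 highest and 3 lowest pathway genes in GM against liver and kidney, and the 3 most similar genes. The genes and lists were chosen with earlier results of these data known. Alternatives covered scaling, background, filters, marked spots, covariates, blocks, the methods' t-test and leaving out pigs.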

Additional observations from a re-analysis of the deposited data

Results flagged for a closer look

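Of 36 groups of pigs (each probe in each tissue and line where it was present), 4 had 1 pig far from the others by Dixon's criterion, where chance alone marks about 1 group in 20. In GM of F2 E, pig 2 was the lowest in GPI at a log2 signal of 11.87, with the next at 13.13 and a gap of 0.698 of the whole range. In GM of F2 C, pig 3 was the highest in LDHB with A_72_P321168 (14.76, next 13.05, gap 0.638 of the range) and with A_72_P095666 (13.94, next 12.40, gap 0.565). In kidney of F2 C, pig 6 was the highest in LDHB with A_72_P007566 (17.24, next 16.68, gap 0.603).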

How the results depend on the processing

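Between the lines no member was called under any of the 30 alternatives in GM, 31 in liver and 31 in kidney. All 7 were called in GM against liver and GM against kidney under the 25 alternatives of each, and 4 or 5 between liver and kidney. No line by tissue or line by sex term of a member was called under the 22 and 51 alternatives run. Over all probes, calls between the lines ranged from 5 (slide as a random block) to 505 (number series as a block) in GM, from 7 (the methods' t-test with unequal variances) to 118 (slide as a fixed block) in liver and from 0 (the methods' t-test with unequal variances) to 9 (number series as a block) in kidney, and leaving out 1 pig gave 88 to 196, 13 to 40 and 4 to 6. The fixed slide block and the omission of kidney F2 E arrays 5 and 7 were chosen after seeing the data, as was normexp on the median signal, which replaced the planned one on the mean signal, not run for want of that column. No source used here states that replicate numbers pair the pigs. Correlations of same-numbered pigs were over 0.1 for 2, 6 and 3 of the 8 pairs in GM, liver and kidney, with a highest value of 0.58 in liver. The labels give F2 E numbers 4 to 8 to different pigs in GM, liver and kidney. Number 2 is a male in F2 C and a female in F2 E. The numbers therefore mark no fixed pairs of pigs, and the replicate block has no basis in the labels. With the replicate block 0 members were called, and 51, 22 and 0 probes in all in GM, liver and kidney.

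The likeness correlations and some of the relations were recomputed under the other scalings and with marked spots kept. The relations were those of LDHB with the fibre sums, PFKM with GPI in GM, and GPI between GM and kidney. Of the values of r so obtained, 86 stayed close to the main one and 16 moved beyond the sampling range of r, none changing sign. Log2 ratios that changed sign were all uncalled. Without kidney F2 E arrays 5 and 7 the line ratios in kidney became 0.11 (LDHB A_72_P007566), 0.19 (A_72_P095666), 0.15 (A_72_P321168), 0.22 (PFKM), 0.21 (UGP2) and 0.091 (PDK4), and LDHB A_72_P095666 in liver against kidney became -0.14. In F2 C pigs alone the latter was -0.12. Leaving out 1 pig moved it between -0.061 and 0.14, the kidney line ratio of LDHB A_72_P007566 between -0.13 and 0.022 and of A_72_P095666 between -0.20 and 0.012, and the GM line ratio of A_72_P321168 between -0.21 and 0.17. The cause was not tested. In liver against kidney, HK2 was called with gMedianSignal or gProcessedSignal scaled to the 75th percentile (1.05 and 1.33), though at background in both tissues. LDHB A_72_P007566 and A_72_P321168 were not called there with the processed signal so scaled (-0.15 and -0.00037), nor A_72_P321168 in F2 E pigs alone (-0.40). The difference between LDHB and LDHA could not be computed without an LDHA probe.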
